A study of Mus musculus with 16 samples.

Results

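The genes described here encode the synaptic vesicle release machinery: the syntaxins (Stx), SNAP-25, the vesicle-associated membrane proteins (Vamp), the synaptotagmins (Syt), complexins (Cplx), synapsins (Syn), syntaxin-binding proteins (Stxbp), RIM proteins (Rims), Munc13 proteins (Unc13), Rab3 GTPases, the SV2 glycoproteins, synaptophysin (Syp), the ATPase NSF and its adaptors Napa and Napb. They were chosen by gene symbol. The symbols matched 74 genes, of which 72 stood in both blocks of the deposited table, among 17986 genes that the blocks share. Syt8 was listed only in the exploration block, at no more than 0.04 FPKM, and Stx19 only in the home cage block, at no more than 0.05 FPKM, so neither was compared. FPKM are fragments per kilobase of transcript, scaled to the mapped fragments of a library, and as a level per length they allow genes to be set side by side.

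RNA had been sequenced from CA1, a field of the hippocampus, of male C57Bl6-background mice between 3 and 6 months of age. They were either wild type or Neil3-/- (written N3 -/- in the labels), deficient in a DNA glycosylase of base excision repair. CA1 was cut out of 8 µm sections by laser dissection. Home cage mice had no intervention, and trained mice spent 20 min per day for 1 week in an open field with sides of 50 cm, with food cues, and their tissue was taken 20 min after the final session. The groups used here were wild-type home cage (n = 2 libraries), Neil3-/- home cage (n = 2), wild-type spatial exploration (n = 3) and Neil3-/- spatial exploration (n = 3). The labels' protocol names the trained condition "learning", and it was taken to apply to the spatial exploration libraries. A further 6 samples carry the source name learning condition and are not analysed here. The labels do not say that the deficiency is limited to any cell type, and they do not say whether the library numbers used below, given in accession order, mark anything shared.

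Release of a synaptic vesicle begins when RIM and Rab3 proteins hold the vesicle at the active zone and Munc18 and Munc13 proteins guide the assembly of the SNARE complex from a plasma-membrane syntaxin, SNAP-25 and the vesicle protein VAMP2. Synaptotagmin-1 senses calcium and triggers fusion, complexin holds and then supports the assembled complex, and NSF with its SNAP adaptors takes the complex apart afterwards. Other syntaxins, VAMPs and synaptotagmins serve the Golgi, endosomes, lysosomes, dendrites and glia. Most mRNA of a presynaptic protein lies in the neuron's cell body, and the CA3 axons that end in CA1 belong to cell bodies outside that field.

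Neil3 went against the labels. It stood at 0 to 0.05 FPKM in the 5 wild-type-labelled libraries and at 8.35 to 15.22 FPKM in the 5 libraries labelled Neil3-/- (difference of means 12.9 FPKM; exact two-sided permutation test over 252 splits, p = 0.00794). FPKM do not show which exons the fragments came from. The groups are therefore named WT-labelled and KO-labelled below, and every genotype direction is a direction between labels. Each environment fills its own block of the table, so environment and block cannot be told apart. The libraries held an estimated 18900000 to 20100000 fragments each, so that 1 fragment of a 1 kb transcript gives 0.050 to 0.053 FPKM. CA1 markers were present throughout (7 of 7 found, summed level 642.93 to 780.50 FPKM), while the dentate list (7 of 7 found) summed to 2.92 to 24.07 FPKM, with Lct at 1.06 to 22.29 FPKM, and its markers Prox1 and C1ql2 did not exceed 0.50 and 0.30 FPKM. KO-labelled home cage library 2 stood apart. It held the highest value of 20 of the 58 tested release genes (34.5%, against 22.1% of all tested genes) and the lowest of 13 (22.4%, against 17.3%). KO-labelled exploration library 3 held the lowest value of 15 (25.9%, against 22.1%).

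The release genes made up 1.37% to 1.70% of the summed FPKM of a library. By their mean over the 10 libraries, 16 genes stood above 100 FPKM, 25 between 10 and 100, 16 between 1 and 10, and 15 below 1. The t-SNARE Snap25 was the highest at 1054 FPKM, followed by the v-SNARE Vamp2 at 742, the vesicle membrane protein Syp at 713 and the vesicle GTPase Rab3a at 628. Neighbours in this order overlapped: Vamp2 ran from 681.24 to 779.46 FPKM, Syp from 631.20 to 803.69 and Rab3a from 572.87 to 675.65. Snap25, whose lowest library stood at 873.67 FPKM, did not overlap with them. The calcium sensor Syt1 had a mean of 365 FPKM, the ATPase Nsf 308, the vesicle-clustering Syn1 246, Cplx2 186 and Cplx1 165. Snap25, Vamp2, Syp and Rab3a, the top 4, held 45.6% to 51.2% of the families' summed FPKM.

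**Figure D1:**
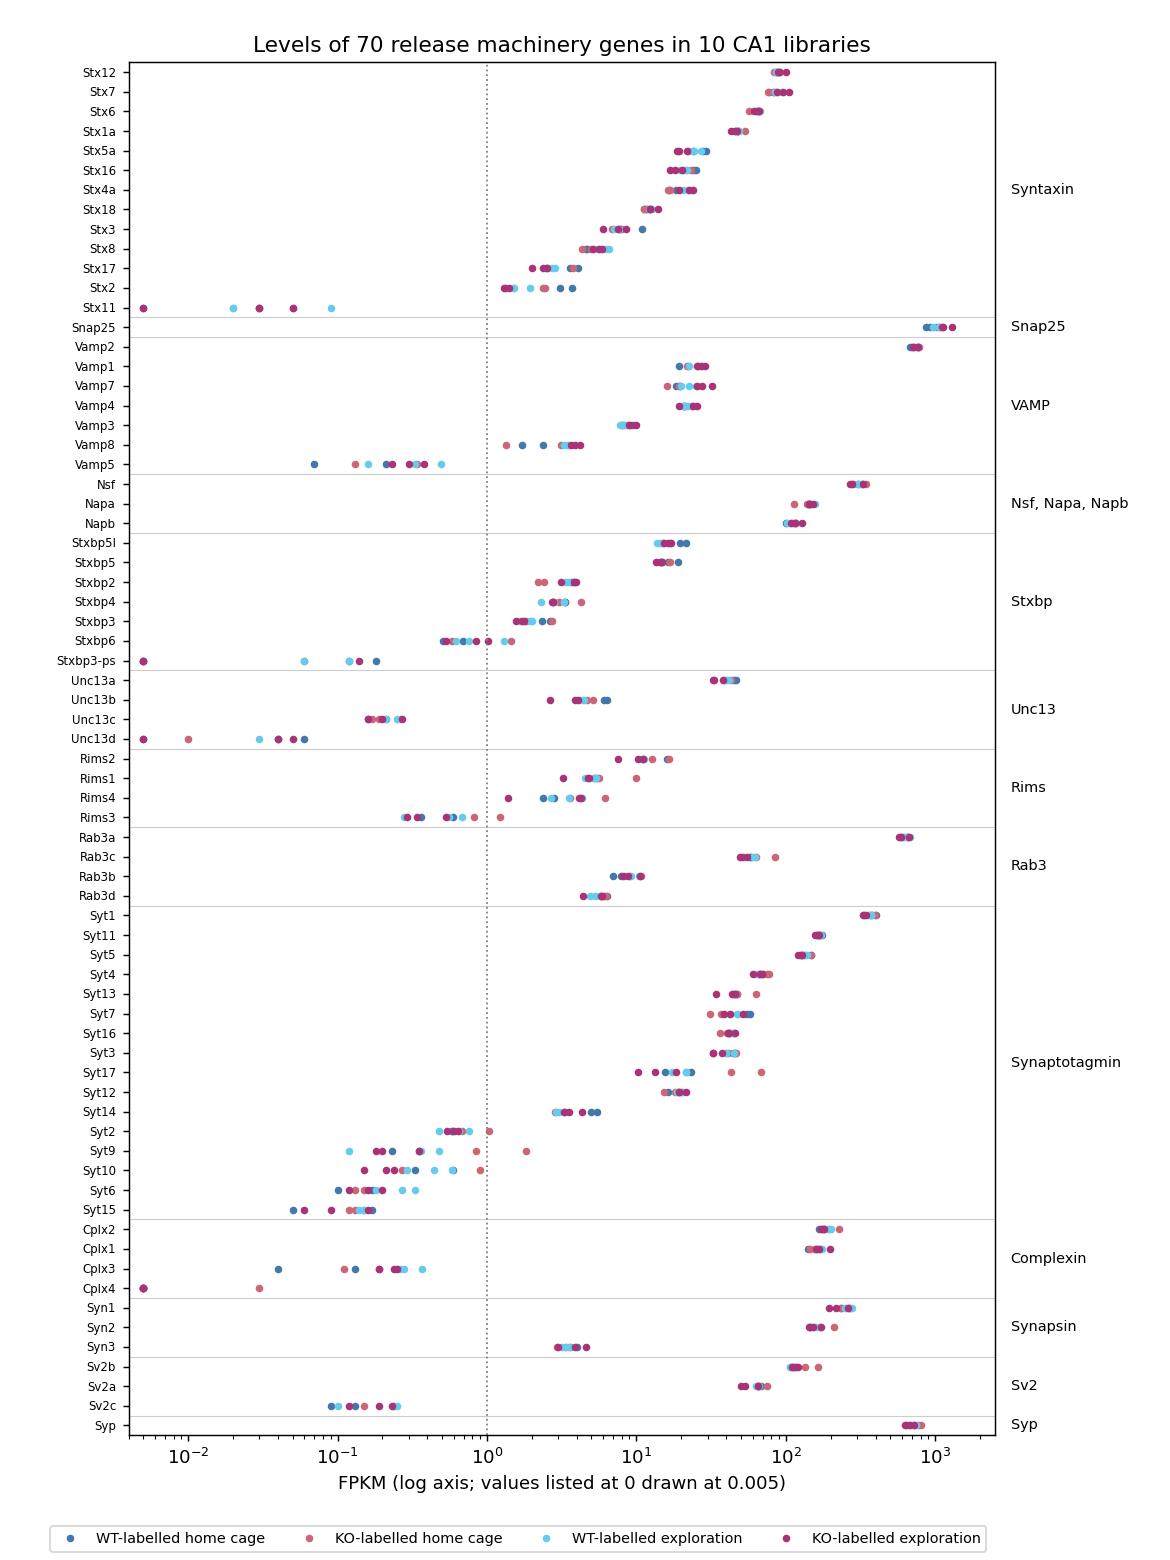
Level of 70 of the 72 release genes in the 10 CA1 libraries, in FPKM on a log axis, grouped by family and coloured by genotype label and environment; each point is 1 library, values listed at 0 are drawn at 0.005, and the dotted line marks 1 FPKM. Snap25, Vamp2, Syp and Rab3a lie furthest right, and the low members of the synaptotagmin, syntaxin, complexin and Unc13 families lie left of the line in most libraries.

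Within families, a single gene often held most of the level. Vamp2 made up 87.9% to 92.0% of the VAMP family's FPKM, Unc13a 87.6% to 92.1% of the Unc13 family and Rab3a 85.8% to 91.2% of the Rab3 family. The synaptotagmins were spread more widely, with Syt1 at 37.1% to 39.7%. Among the syntaxins the highest gene was Stx12, an endosomal syntaxin, at 89.3 FPKM. The neuronal plasma-membrane syntaxin gene Stx1a had a mean of 47.5 FPKM. Cplx2 held 47.8% to 59.1% of Cplx1 and Cplx2 together, and the ranges of these complexins over the libraries overlapped. Sv2b was the leading SV2 gene at 120 FPKM, and Rims2, a RIM scaffold, led its family at 11.8 FPKM.

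At the other end, 14 of the 72 genes did not reach 1 FPKM in at least 2 libraries and were not tested. They were Syt2, Syt6, Syt9, Syt10, Syt15, Rims3, Vamp5, Unc13c, Unc13d, Cplx3, Cplx4, Sv2c, Stx11 and the pseudogene Stxbp3-ps, whose fragments cannot be told from those of Stxbp3 with certainty. The retinal complexin Cplx4 was listed at 0 in 9 libraries and at 0.03 FPKM in 1. Syt2, a fast calcium sensor of hindbrain and inhibitory terminals, ranged from 0.48 to 1.03 FPKM, and Unc13d, a Munc13 protein of blood cells, from 0 to 0.06 FPKM. Syt9, a calcium sensor related to Syt1, stood at 0.85 and 1.83 FPKM in the KO-labelled home cage libraries and between 0.12 and 0.48 FPKM in the other 8.

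The spread over the 10 libraries differed widely between genes. The coefficient of variation had a median of 12.2% over the 58 tested genes. Syt11, a synaptotagmin that does not bind calcium, varied least at 3.34%, ahead of the trans-Golgi syntaxin Stx6 at 4.71% and Vamp2 at 4.72%. Syt17 varied most at 69.8%, ahead of the plasma-membrane syntaxin Stx2 at 40.5%, the amisyn gene Stxbp6 at 39.4% and Rims4 at 37.3%. In bulk tissue, fewer cells of a type and less RNA per cell cannot be told apart.

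Promoter windows from RefSeq (GRCm38.p6), each with 250 bases before and 50 after an annotated start, were found for 54 of the 72 genes, with 68 windows in all. They were searched on both strands for the cAMP response element TGACGTCA, the site of the activity-regulated factor CREB, and for TTCAGCACC, the left part of the element bound by the neuronal gene repressor REST. The former was in 3 of 68 windows (4.41%), against 1.79% of 32851 windows of the same length. Those 3 were the windows of Stxbp3, Napa and Syn1, shown here with the element in capitals because the study concerns activity, each on the strand of its gene. Distances are those of the first base of an element from the annotated start of its window. For Napa that start lies inside the annotated gene, and the last base of the element falls on it.
Stxbp3, chr3:108840593-108840620, minus strand, 108 bases before the start: ttgatgcgcgTGACGTCAcctgagggcg
Napa, chr7:16098563-16098590, plus strand, 7 bases before the start: caggcctgggTGACGTCAacgcagcggg
Syn1, chrX:20921060-20921087, minus strand, 159 bases before the start: aaaggctgacTGACGTCActcactagcc
The REST element part was in 2 of 68 windows (2.94%), against 0.371% of all windows, and these were the windows of Syn1 and Unc13a. The window of Unc13a holds it in reverse, 23 bases after the start, with the reversed letters in capitals.
Unc13a, chr8:71671717-71671745, minus strand: ccgcgcccccGGTGCTGAAgcgacatggc
The 250 bases before the start of Syn1 hold both elements, 1 of each, in capitals.
Syn1, chrX:20920919-20921168, minus strand: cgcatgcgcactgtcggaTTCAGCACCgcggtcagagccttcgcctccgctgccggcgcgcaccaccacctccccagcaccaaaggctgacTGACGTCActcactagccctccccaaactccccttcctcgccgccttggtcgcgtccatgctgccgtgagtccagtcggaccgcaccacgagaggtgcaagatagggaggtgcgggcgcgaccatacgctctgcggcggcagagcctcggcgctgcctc
Other searches gave TGANTCA, the AP-1 site, in 2 of 68 windows (2.94%, Syt2 and Syt6), against 7.81% of all, and the EGR site GCGTGGGCG in 1 (1.47%, Unc13a), against 0.612%. A match describes the letters in the window and not a bound site. Averaged over both labels, the difference on the log2(FPKM + 1) scale between exploration and home cage was -0.27 for Stxbp3 (SE 0.09, adjusted p = 0.0438), 0.14 for Napa (SE 0.06, adjusted p = 0.102) and -0.05 for Syn1 (SE 0.08, adjusted p = 0.649), all by limma.

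The differences between groups were tested with limma on log2(FPKM + 1) over all 11892 genes that reached 1 FPKM in 2 or more libraries, and a gene was called at a Benjamini-Hochberg adjusted p under 0.05. Between the genotype labels in the home cage, 4 of the 58 tested release genes were called (6.9%, against 3.57% of all tested genes), 1 higher and 3 lower in KO-labelled libraries. The higher gene was Syt17, and the lower genes were Syt7, Syt14 and Stxbp2. With size factors in place of the deposited scaling, 2 were higher and 3 lower (8.62%, against 3.75% of all genes). With no filter on low genes 0 were called by limma, against 0.15% of all genes, and 15 had an unadjusted p under 0.05. Adjusted p was then 0.0772 for Syt7, 0.0841 for Syt14, 0.0873 for Stxbp2 and 0.0879 for Syt17. The median log2 difference of the release genes was -0.02, the same as over all genes. After exploration, 0 of 58 were called (0.597% of all genes), and 7 had an unadjusted p under 0.05 in limma, the only tool run. Unadjusted counts over all genes were not worked out in any comparison, so those of the release genes show nothing particular to them.

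Syt17, also called B/K, is a synaptotagmin with no transmembrane segment, and it lies at chromosome 7, 118380713 to 118448583 (GRCm38). It stood at 15.62 and 23.19 FPKM in the WT-labelled home cage libraries and at 42.78 and 68.79 FPKM in their KO-labelled counterparts. After exploration it stood at 21.51, 21.63 and 17.26 FPKM in WT-labelled and at 18.53, 13.42 and 10.20 FPKM in KO-labelled libraries. The KO-labelled home cage libraries were thus above all 8 others, whose groups overlapped. In the home cage the log2 difference was 1.46 (SE 0.26, 2.76-fold, adjusted p = 0.0192, limma), and after exploration it was -0.52 (SE 0.22, adjusted p = 0.254). The home cage difference was 1.13 (adjusted p = 0.137) with KO-labelled library 2 left out and 1.19 (adjusted p = 0.172) with WT-labelled library 1 left out.

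Genes that mark hippocampal fields moved in the same libraries as Syt17. Of a list of 6 CA3 genes 5 were found, and their summed level was 226.02 and 419.54 FPKM in KO-labelled home cage libraries, against 66.73 to 78.00 in WT-labelled home cage, 72.18 to 116.10 in WT-labelled exploration and 83.26 to 172.31 in KO-labelled exploration libraries. Most of that sum was Nnat, at 214.66 and 404.60 FPKM in the KO-labelled home cage libraries and 34.46 to 127.88 FPKM elsewhere. Grik4 was also high there, at 5.79 and 8.49 FPKM against 1.89 to 4.79 FPKM elsewhere. The CA3 genes Bok and Cpne4 were not high there, at 4.53 and 4.99 FPKM and at 1.04 and 1.46 FPKM, and Iyd did not exceed 0.18 FPKM in any library. The CA1 list as a whole (7 of 7 found) summed to 697.89 and 737.49 FPKM in those libraries, against 752.39 and 754.29 in WT-labelled home cage libraries. Within it, Wfs1 was low in them, at 127.30 and 64.88 FPKM against 153.10 to 238.69 FPKM elsewhere, while Dcn was high, at 2.82 and 27.24 FPKM against 0.20 to 2.12 elsewhere. Mpped1, at 218.98 and 234.32 FPKM against at most 183.51 elsewhere, and Fibcd1, at 175.35 and 180.19 FPKM against at most 156.81, were also high. The dentate list summed to 2.92 and 7.04 FPKM in those libraries, against 12.00 to 24.07 in the other 8. That difference was mostly Lct, at 5.44 and 1.06 FPKM against 10.36 to 22.29 FPKM elsewhere. The dentate marker Prox1 was not low there, at 0.30 and 0.50 FPKM against 0.18 to 0.39 FPKM elsewhere. Astrocyte markers (7 of 7 found) summed to 151.00 and 188.85 FPKM in KO-labelled and 105.16 and 115.14 FPKM in WT-labelled home cage libraries, and microglial markers (6 of 6) to 33.73 and 37.65 FPKM and to 27.15 and 25.63 FPKM. Nnat, Wfs1 and Dcn were singled out after their values were seen. The part of these markers in the difference of Syt17, or of the other release genes between labels, was not tested.

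**Figure D2:**
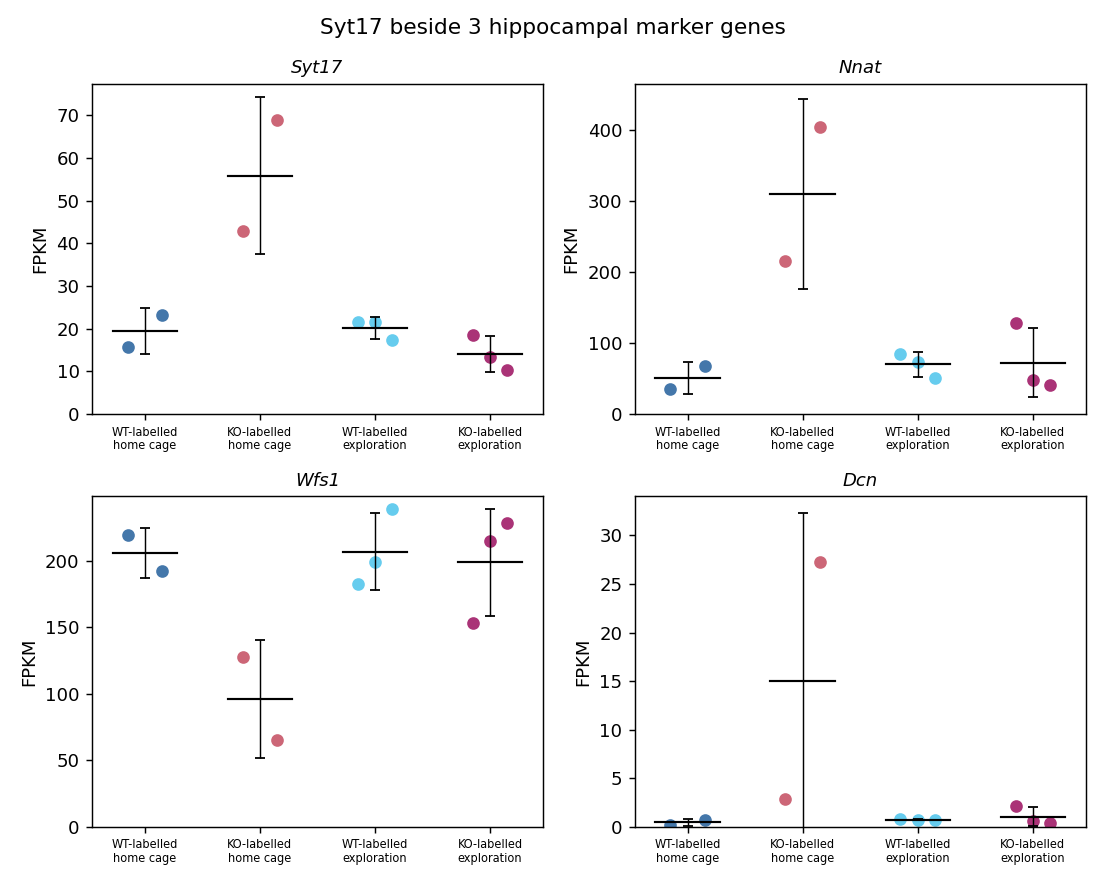
Level in FPKM of Syt17 and of the field markers Nnat (CA3 list), Wfs1 and Dcn (CA1 list) by group; each point is 1 library, the line is the group mean and the bars are the SD, with the lower bar of Dcn running off the axis at 0. In KO-labelled home cage libraries Syt17, Nnat and Dcn have their highest values and Wfs1 its lowest.

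Syt7 is a high-affinity calcium sensor of asynchronous release and facilitation, at chromosome 19, 10388802 to 10453181. It stood at 57.84 and 55.04 FPKM in WT-labelled and at 37.04 and 30.99 FPKM in KO-labelled home cage libraries. The exploration libraries of both labels lay between these groups, at 42.47, 48.16 and 47.17 FPKM in WT-labelled and 38.61, 51.77 and 42.31 FPKM in KO-labelled mice. The home cage log2 difference was -0.72 (SE 0.13, 1.65-fold, adjusted p = 0.0188, limma), and the exploration difference was -0.06 (SE 0.10, adjusted p = 0.797). Averaged over both environments it was -0.39 (SE 0.08, adjusted p = 0.0411, limma). The averaged call was lost without WT-labelled home cage library 1 or 2 or KO-labelled home cage library 2. It was also lost without any 1 of the WT-labelled exploration libraries and without KO-labelled exploration library 3. The home cage value was -0.59 (adjusted p = 0.135) with KO-labelled library 2 left out and -0.68 (adjusted p = 0.162) with WT-labelled library 1 left out.

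Syt14, a synaptotagmin that does not bind calcium, lies at chromosome 1, 192882653 to 193035871. Its levels were 5.0 and 5.44 FPKM in WT-labelled home cage libraries, 3.33 and 2.84 in KO-labelled home cage, 2.90, 3.04 and 3.30 in WT-labelled exploration and 3.27, 4.33 and 3.56 in KO-labelled exploration libraries. The WT-labelled home cage libraries alone lay above the rest. The home cage log2 difference between labels was -0.61 (SE 0.13, adjusted p = 0.0313, limma). It was -0.52 (adjusted p = 0.178) without KO-labelled library 2 and -0.66 (adjusted p = 0.172) without WT-labelled library 1.

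Stxbp2, the Munc18 protein of secretory granules, lies on chromosome 8 (3630960 to 3643998), 50.0 Mb from Neil3. It stood at 3.81 and 3.68 FPKM in WT-labelled and at 2.21 and 2.40 FPKM in KO-labelled home cage libraries, and at 3.12 to 3.97 FPKM in all 6 exploration libraries. Only the KO-labelled home cage libraries lay below the others. The home cage log2 difference was -0.52 (SE 0.12, adjusted p = 0.0391, limma), and it ran from -0.56 to -0.48 when each library was left out in turn. The call was lost without any 1 of the home cage libraries. It was also lost without any 1 of the WT-labelled exploration libraries and without KO-labelled exploration library 2. Unc13a and Rab3a lie nearer to Neil3 on that chromosome, at 18.0 and 17.2 Mb, and neither was called between labels in any comparison.

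**Figure D3:**
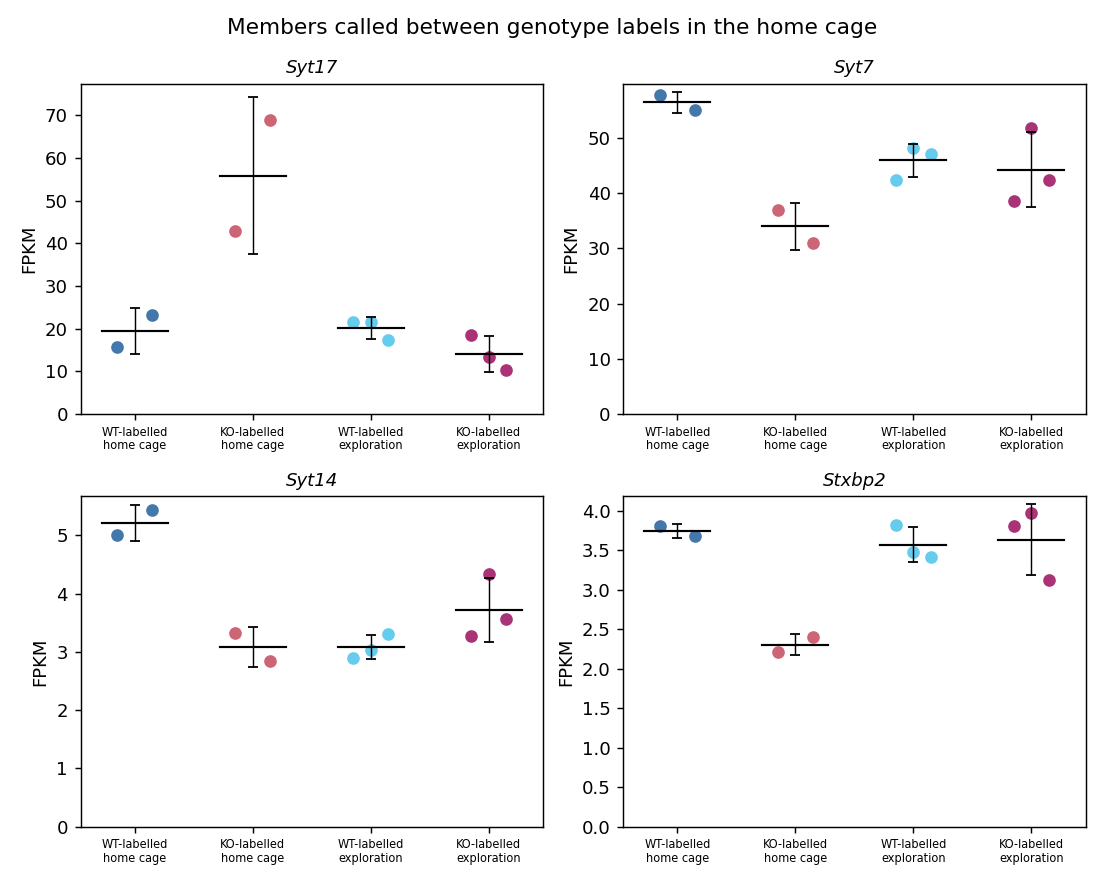
Level in FPKM of Syt17, Syt7, Syt14 and Stxbp2, the 4 release genes called between genotype labels in the home cage; each point is 1 library, the line is the group mean and the bars are the SD. The home cage groups, of 2 libraries each, do not overlap for any of the 4, and the exploration groups overlap for Syt7, Syt14, Stxbp2 and Syt17. Of all 58 tested release genes, 31 had home cage groups that did not overlap, and the share over all genes was not worked out.

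Averaged over both environments, 2 of 58 release genes were called between labels, both lower (3.45%, against 2.13% of all genes). They were Syt7, above, and Stx5a, a syntaxin of transport between endoplasmic reticulum and Golgi. Stx5a stood at 27.80 and 29.27 FPKM in WT-labelled and 22.30 and 24.08 FPKM in KO-labelled home cage libraries. After exploration it stood at 24.23, 24.09 and 27.10 FPKM in WT-labelled and 21.86, 19.32 and 18.63 FPKM in KO-labelled libraries. In both environments every KO-labelled library was below every WT-labelled one. The labels did not overlap for 31 of the 58 tested release genes in the home cage and for 13 after exploration. The matching shares over all genes were not worked out, so these counts show nothing particular to the release genes. The averaged log2 difference was -0.31 (SE 0.06, adjusted p = 0.0375, limma), and it ran from -0.34 to -0.28 when each library was left out in turn. The call was lost without any 1 of the home cage libraries. It was also lost without any 1 of the WT-labelled exploration libraries and without KO-labelled exploration library 2.

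The core genes of fast release did not pass the test between labels. Of 13 such genes (Snap25, Stx1a, Vamp2, Unc13a, Rims1, Syt1, Cplx1, Cplx2, Rab3a, Syn1, Sv2a, Syp and Nsf), 0 were called by limma in the home cage, after exploration or on average, and 2, 3 and 2 had an unadjusted p under 0.05. Of all tested genes 3.57%, 0.597% and 2.13% were called in these comparisons, so 0 of 13 lies near the share over all genes. In the home cage their log2 differences ran from -0.16 to 0.42, with 95% intervals within -0.36 to 0.87. After exploration they ran from -0.23 to 0.18, with intervals within -0.59 to 0.38. The scaffold gene Rims1 had the widest home cage interval, -0.04 to 0.87, with levels of 5.49 and 5.24 FPKM in WT-labelled and 5.65 and 9.88 FPKM in KO-labelled libraries. Unc13a, the main Munc13 priming gene, had a log2 difference of -0.23 after exploration, as did Syn1, and Unc13a stood at 41.76, 40.15 and 39.93 FPKM in WT-labelled and 33.00, 38.01 and 32.74 FPKM in KO-labelled libraries. Its groups did not overlap, as for 13 of the 58 tested release genes, a count for which the share over all genes was not worked out. Its interval was -0.39 to -0.07 (adjusted p = 0.161, limma). Most of these intervals include changes in either direction.

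Between exploration and home cage, averaged over both labels, 21 of 58 release genes were called (36.2%, against 31.9% of all genes), 6 higher and 15 lower after exploration. With size factors the split was 9 higher and 12 lower (36.2%, against 32.8% of all genes). With quantile normalization 27 of 58 were called (46.6%, against 29.3% of all genes), 6 higher and 21 lower. The median log2 difference was -0.06, against -0.03 over all genes. The 6 that stayed called whichever library was left out were Stx2, Unc13b and Syt17, lower, and Vamp7, Vamp8 and Stx4a, higher. None of these 6 is the leading gene of its family.

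Stx2, a plasma-membrane syntaxin at chromosome 5, 128984557 to 129008600, was lower after exploration under both labels. It stood at 3.07 and 3.74 FPKM in WT-labelled and 2.45 and 2.38 FPKM in KO-labelled home cage libraries, and after exploration at 1.51, 1.5 and 1.93 FPKM in WT-labelled and 1.32, 1.41 and 1.30 FPKM in KO-labelled libraries. All 4 home cage libraries were above all 6 exploration libraries. The averaged log2 difference was -0.64 (SE 0.08, adjusted p = 0.000512, limma). It fell within each label too, with adjusted p = 0.00512 in WT-labelled and 0.00759 in KO-labelled libraries, and it was the 1 release gene called in both.

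Unc13b, the second Munc13 priming gene of forebrain synapses, lies at chromosome 4, 43046193 to 43264873. It stood at 6.04 and 6.38 FPKM in WT-labelled and 4.66 and 5.15 FPKM in KO-labelled home cage libraries, and at 4.19, 4.5 and 4.41 FPKM and 3.91, 4.05 and 2.66 FPKM after exploration. Here too the home cage libraries were above all exploration libraries. The averaged log2 difference was -0.41 (SE 0.10, adjusted p = 0.00821, limma). For Syt17 the averaged value of -0.92 (SE 0.17, adjusted p = 0.00292) rested on the KO-labelled libraries, as its per-library levels above show.

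Vamp8 and Vamp7, v-SNAREs of late endosomes and lysosomes, were higher after exploration, and the endosomal v-SNARE genes Vamp3 and Vamp4 had log2 differences of 0.03 and 0.03 (adjusted p = 0.788 and 0.823, limma). Vamp8 stood at 1.72 and 2.36 FPKM in WT-labelled and 3.11 and 1.34 FPKM in KO-labelled home cage libraries, and after exploration at 3.51, 3.28 and 3.51 FPKM and 4.19, 3.91 and 3.68 FPKM. The log2 difference was 0.61 (SE 0.14, adjusted p = 0.00675, limma), and the 2 KO-labelled home cage libraries differed more from each other than the KO-labelled group means did. Vamp7, which serves lysosomal and neurite exocytosis, stood at 18.32 and 19.74 FPKM and at 19.18 and 16.15 FPKM in the home cage, and at 22.57, 20.03 and 25.23 FPKM and 32.11, 27.33 and 25.61 FPKM after exploration, WT-labelled first. All exploration libraries were above all home cage libraries, with a log2 difference of 0.44 (SE 0.08, adjusted p = 0.00324, limma). Stx4a, a plasma-membrane syntaxin that also acts in dendrites, stood at 16.40 to 18.32 FPKM in the 4 home cage libraries and at 19.28 to 24.08 FPKM in the 6 exploration libraries, with a log2 difference of 0.36 (SE 0.07, adjusted p = 0.00425, limma).

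**Figure D4:**
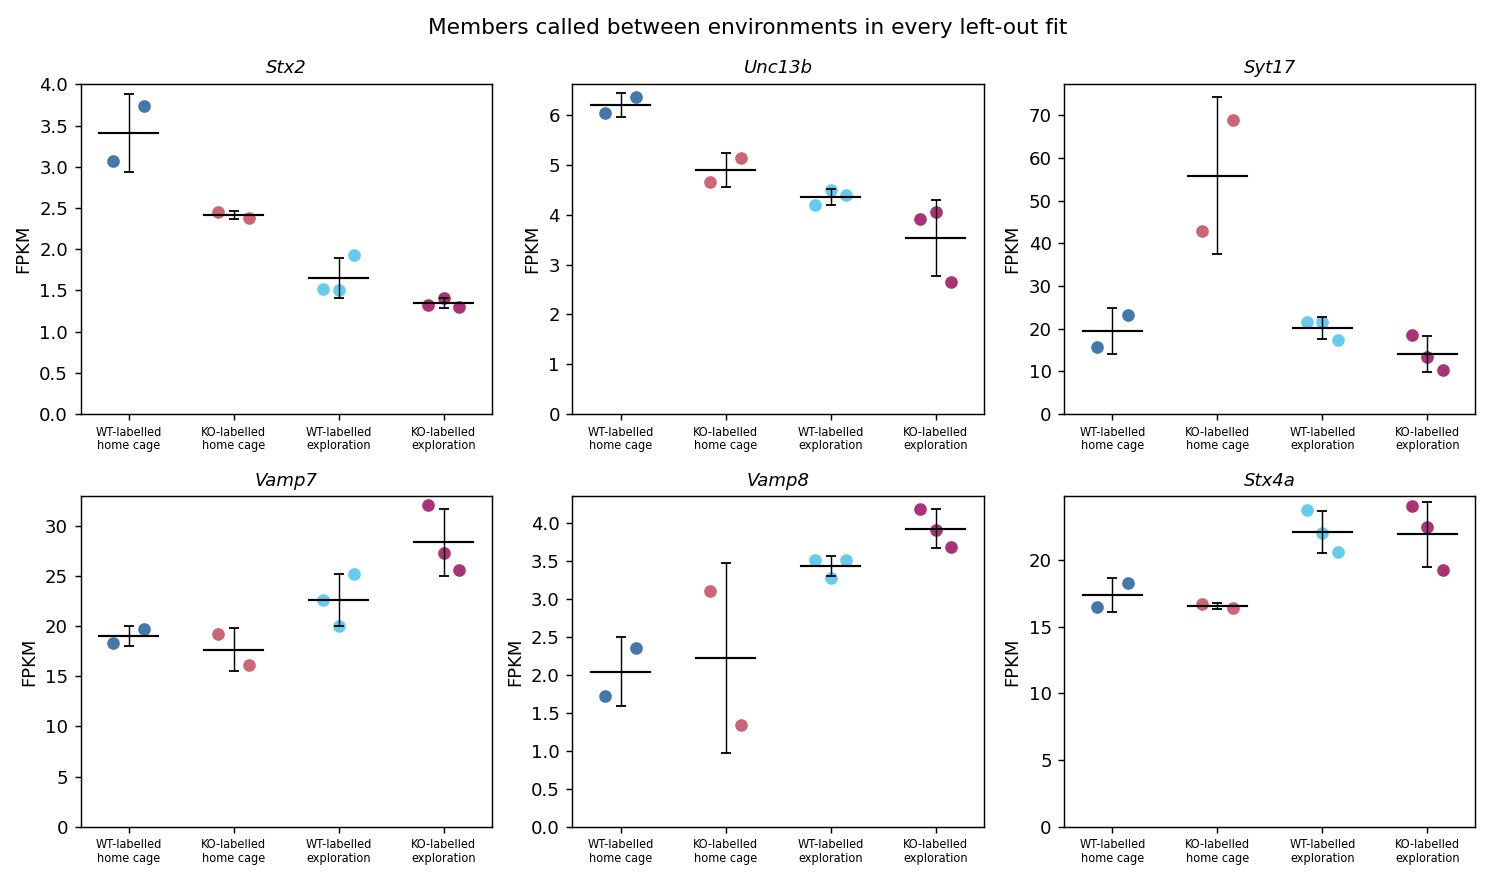
Level in FPKM of the 6 release genes called between environments with each library left out in turn (Stx2, Unc13b, Syt17, Vamp7, Vamp8 and Stx4a); each point is 1 library, the line is the group mean and the bars are the SD. For Stx2, Unc13b, Vamp7, Vamp8 and Stx4a the exploration libraries of both labels lie on the same side of the home cage libraries, and for Syt17 the KO-labelled home cage libraries lie above the rest.

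Among the remaining 15 genes called on average, the late endosomal syntaxins Stx7 (log2 difference 0.20) and Stx8 (0.27) and the complexin gene Cplx1 (0.20) were higher. The active-zone scaffolds Rims1 (-0.39) and Rims2 (-0.40), the autophagosomal syntaxin Stx17 (-0.35), the trans-Golgi syntaxin Stx16 (-0.26) and the Munc18 protein Stxbp3 (-0.27) were among the lower genes. The others were Rab3c, Syt3, Stxbp5l, Sv2b, Unc13a, Stx5a and Stxbp5, at -0.24 to -0.18. These calls were less firm: of the home cage libraries, leaving out KO-labelled 2 ended 15 of the 21 and leaving out WT-labelled 2 ended 14. Calls over all tested genes also became fewer in both cases. Of the 13 core genes, Cplx1 was higher and Rims1 and Unc13a lower, where 31.9% of all genes were called. The differences of all 13 ran from -0.39 to 0.20. Snap25, the most abundant release gene, had a difference of 0.19 with a 95% interval of 0.04 to 0.34 (adjusted p = 0.0523, limma).

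Sums of other cell types' markers also differed between the environments. The oligodendrocyte list (8 of 8 found) summed to 145.28 to 235.66 FPKM in home cage and 208.01 to 380.31 FPKM in exploration libraries. The interneuron list (10 of 10) summed to 232.32 to 270.03 FPKM and 291.81 to 376.04 FPKM, and the blood list (5 of 5) to 94.85 to 154.07 FPKM and 159.95 to 308.08 FPKM. The CA2 list (5 of 5) summed to 105.89 and 106.36 FPKM in KO-labelled home cage and 152.09 to 254.44 FPKM in KO-labelled exploration libraries, and to 115.95 and 234.17 FPKM and 172.62 to 183.59 FPKM in the WT-labelled ones. Of the markers tested, 4 of 6 microglial, 3 of 7 astrocyte, 5 of 8 oligodendrocyte and 4 of 4 blood genes were called higher on average. Of 9 interneuron genes 3 were higher and 1 lower, and of 8 pan-neuronal genes 2 were higher and 1 lower. Of 7 CA1 genes 1 was higher and 4 lower. In the CA2 list 1 of 4 was higher, in the CA3 list 2 of 4 and in the dentate list 1 of 2, with 0 lower in each. In the endothelial list 0 of 4 were called, and in the choroid plexus list 0 of 2. Over all genes 12.6% were called higher and 19.2% lower. The choroid plexus list (5 of 5) was high in 3 WT-labelled libraries, at 235.66, 131.60 and 108.32 FPKM, against 10.30 to 18.15 FPKM in the other 7. The pan-neuronal list (8 of 8) ran from 2330.90 to 2514.43 FPKM in the home cage and from 2216.69 to 2497.40 FPKM after exploration. Their part in the environment differences was not tested.

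Within WT-labelled libraries, 3 of 58 release genes were called between environments (5.17%, against 6.31% of all genes), all lower. With size factors the split was 1 higher and 3 lower (6.9%, against 6.95% of all genes). With quantile normalization it was 2 and 3 (8.62%, against 5.82%). Beside Stx2, with a log2 difference of -0.73 (SE 0.12), these were Syt14, at -0.61 (SE 0.12, adjusted p = 0.0140, limma), and Stxbp5l, a tomosyn that competes for SNARE assembly. In WT-labelled libraries Stxbp5l stood at 21.42 and 19.63 FPKM in the home cage and at 15.01, 14.50 and 13.86 FPKM after exploration. These groups did not overlap, as for 31 of the 58 tested release genes, a count for which the share over all genes was not worked out. The log2 difference for Stxbp5l was -0.48 (SE 0.09, adjusted p = 0.00937, limma). Without WT-labelled home cage library 2, 0 of the release genes were called by limma, with 7 at an unadjusted p under 0.05, and adjusted p was 0.108 for Stx2, 0.167 for Syt14 and 0.0653 for Stxbp5l. Calls over all tested genes also became fewer in that fit. In the fit of all libraries 0 of the core genes were called, against 6.31% of all genes, and 0 had an unadjusted p under 0.05.

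Within KO-labelled libraries, 18 of 58 were called (31.0%, against 28.6% of all genes), 6 higher and 12 lower. With quantile normalization 25 were called (43.1%, against 25.7% of all genes), 6 higher and 19 lower. The median log2 difference was -0.14, against -0.04 over all genes. The lower genes included Rims1 (-0.71), Rims2 (-0.56), Rab3c (-0.49), Unc13b (-0.39), Sv2b (-0.37), Sv2a (-0.31) and Cplx2 (-0.25). The calls of Unc13b, Sv2a and Cplx2 were lost without any 1 of the WT-labelled exploration libraries, among others. Unc13a, Syp, Syt1 and Rab3a were not called (adjusted p = 0.0513, 0.0753, 0.0922 and 0.642, limma). Syt17 had the largest decrease, at -1.91 (SE 0.24, 3.77-fold, adjusted p = 0.00106, limma), followed after the Rims genes by Stx2 (-0.54), and Syt13 was at -0.41. The higher genes were Vamp8 (0.67), Vamp7 (0.65), Stxbp2 (0.48), Stx4a (0.38), Syt7 (0.36) and Stx7 (0.27). Of these 18 calls, 17 were lost without KO-labelled home cage library 2, and Syt17 was the exception, at -1.58 (adjusted p = 0.0240).

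Without that library, calls over all tested genes also became fewer. For several of the release genes that library moved the value itself, and Rims1 is an example. In KO-labelled libraries it stood at 5.65 and 9.88 FPKM in the home cage and at 3.24, 4.73 and 4.80 FPKM after exploration. The value of 9.88 FPKM was the highest of all 10 libraries, and the other 9 lay between 3.24 and 5.65. The log2 difference was -0.71 (SE 0.19, adjusted p = 0.0188, limma), and -0.35 (adjusted p = 0.257) without library 2. For Rab3c, which stood at 62.87 and 85.20 FPKM in KO-labelled home cage libraries and at 50.62, 55.42 and 49.60 FPKM after exploration, the value moved from -0.49 to -0.27 (adjusted p = 0.159). For Vamp8 it moved from 0.67 to 0.26 (adjusted p = 0.306), where library 2 had the lowest level of all, 1.34 FPKM. Other lost calls came with little change in the value: without library 2, Stx2 was at -0.56 (adjusted p = 0.0654), Stxbp2 at 0.53 (adjusted p = 0.061) and Stx4a at 0.37 (adjusted p = 0.131).

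**Figure D5:**
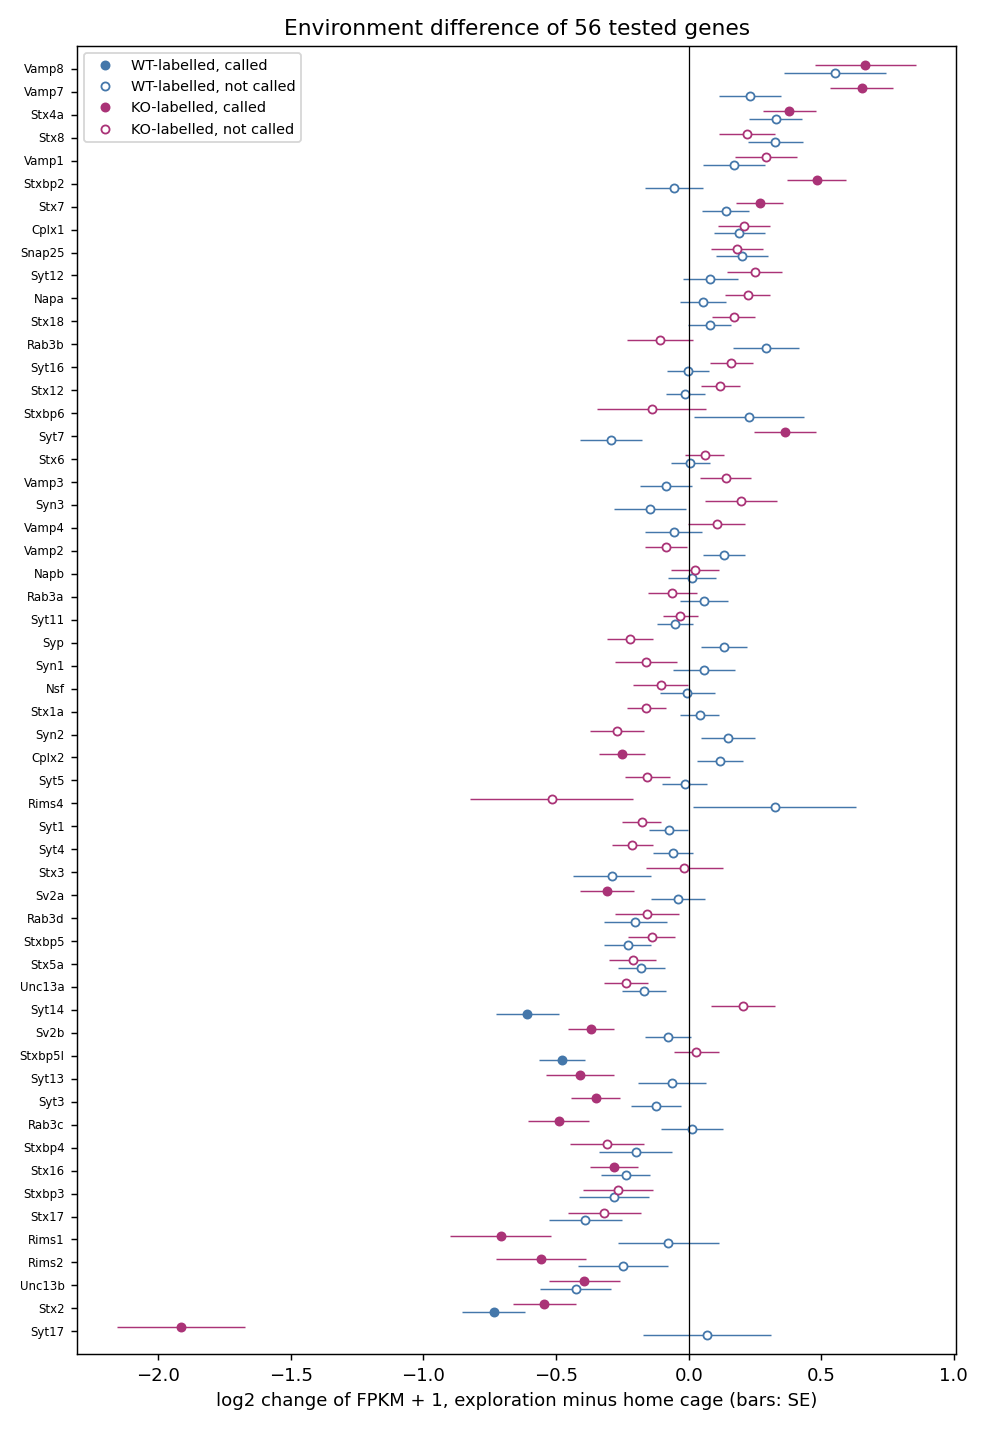
Log2 difference of FPKM + 1 between exploration and home cage for 56 of the 58 tested release genes, in WT-labelled (blue) and KO-labelled (purple) libraries; filled points were called at a limma adjusted p under 0.05, and bars are the SE. Stx2 is filled in both colours, and Syt17 lies at -1.91 in KO-labelled and 0.07 in WT-labelled libraries.

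The responses of the labels to exploration differed for 2 of 58 release genes in a test of the difference itself (3.45%, against 0.875% of all genes). For Syt17 the response of KO-labelled libraries was lower by a log2 value of -1.98 (SE 0.34, adjusted p = 0.0496, limma), since it was -1.91 in KO-labelled and 0.07 in WT-labelled libraries. For Syt14 it was higher by 0.81 (SE 0.17, adjusted p = 0.0498, limma), at 0.20 in KO-labelled and -0.61 in WT-labelled libraries. Both lie at the threshold, and the test uses the same home cage libraries as the genotype difference above. Adjusted p was 0.194 for Syt17 and 0.214 for Syt14 when KO-labelled home cage library 2 was left out, and 0.223 for both when WT-labelled home cage library 1 was. With a pseudocount of 0.1 FPKM it was 0.0591 for Syt17 and 0.0596 for Syt14. Over all tested release genes, 35 of 58 had a response of the same sign in both labels. The matching share over all genes was not worked out, so this count shows nothing particular to the release genes. No core gene was called for a difference in response, against 0.875% of all genes. Of the 13, 3 had an unadjusted p under 0.05 in limma.

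A list of 56 further presynaptic genes, of which 54 were tested, gives the surroundings of these families. Between labels in the home cage 2 were called (3.7%, against 3.57% of all genes): 1 was higher, the endophilin gene Sh3gl2 (log2 difference 0.40), and 1 lower, Rimbp2 (-0.79), whose product links RIM proteins to calcium channels. Rimbp2 stood at 23.69 and 22.24 FPKM in WT-labelled and 12.91 and 12.86 FPKM in KO-labelled home cage libraries, and it was also lower on average (-0.42, adjusted p = 0.0403, limma). After exploration 0 of the 54 were called between labels by limma (0.597% of all genes), with 10 at an unadjusted p under 0.05. The median log2 difference of the list was 0.06 between labels in the home cage, -0.09 between environments in KO-labelled and 0.03 in WT-labelled libraries, against -0.02, -0.04 and -0.02 over all genes. Between environments 6 were higher and 10 lower on average (29.6%, against 31.9% of all genes), led by the SNAP-25 relative Snap23 (-0.60), the active-zone scaffold Bsn (-0.46), the liprin gene Ppfia1 (-0.40) and the vesicle protein gene Synpr (0.37). Snap23 stood at 1.49 to 3.24 FPKM in the 4 home cage libraries and at 1.02 to 1.53 FPKM in the 6 exploration libraries. In WT-labelled libraries 0 were higher and 2 lower (3.7%, against 6.31%), Snap23 (-0.85) and Ppfia2 (-0.35). In KO-labelled libraries 4 were higher and 12 lower (29.6%, against 28.6%), led by Bsn (-0.69), the vesicle protein gene Syngr3 (0.54), the vesicular glutamate transporter gene Slc17a7 (-0.48) and the priming factor gene Cadps2 (-0.47). For the difference in response 0 of the list were called by limma (0.875% of all genes), with 15 at an unadjusted p under 0.05. Unadjusted counts over all genes were not worked out, so those of the list show nothing particular to it.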

How the data were processed

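The authors deposited FPKM per gene and library in 1 table of 2 blocks, 1 for the 6 exploration and 1 for the 4 home cage libraries. The submitters' processing notes name HISAT, StringTie, Bowtie2, RSEM and GATK and the builds GRCm38 and mm10, without their roles. Which of them aligned the reads of 100 bp, and whether counting used strand, is not given in the sources used here, so overlapping and antisense genes are uncertain. Columns were matched to samples by title and rows by NCBI gene ID. The release genes and all lists were chosen with earlier results of these data known.

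Count tests do not apply to FPKM. The spacing of FPKM values of 0.08 to 0.6, with GENCODE transcript lengths less 100 nt, gave the estimate of depth. The limma package (version 3.58.1, R 4.3.3) was fitted to log2(FPKM + 1) with a trend in the prior variance, 1 mean for each of the 4 groups, 6 residual and 5.71 prior degrees of freedom, over the 11892 genes that reached 1 FPKM in 2 or more libraries. The 7 comparisons were each adjusted by Benjamini-Hochberg over these genes, and log2 differences on this scale understate the change of low genes. The procedure was checked on simulated data. P-values measure the spread between these libraries. Named were Neil3, 13 core genes, per comparison up to 8 called genes with the largest rise and up to 8 with the largest fall, the highest and lowest gene of each family, and up to 4 called genes of the further presynaptic list. The untested genes, and those given as examples of high or low spread, lie outside that rule and were chosen after their values were seen. Napa, Vamp3, Vamp4, Syt3 and Stxbp5 are also named outside that rule. Some genes are counted but not reported here by name. Alternatives were another pseudocount (0.1), no filter, a filter of 5 FPKM, size factors, quantile normalization, only the groups compared, and each library left out.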

Additional observations from a re-analysis of the deposited data

Results flagged for a closer look

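In 2 release genes the response to exploration differed between the labels in the test of the difference itself. For Syt17 it was -1.98 on the log2(FPKM + 1) scale (KO-labelled minus WT-labelled), with the KO-labelled home cage libraries at 42.78 and 68.79 FPKM and the other 8 between 10.20 and 23.19 FPKM. For Syt14 it was 0.81, with the WT-labelled home cage libraries at 5.0 and 5.44 FPKM and the other 8 between 2.84 and 4.33 FPKM. Each rests on a home cage group of 2 libraries, and the environments sit in separate blocks of the table.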

How the results depend on the processing

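No called gene changed its direction under the alternatives run. With no filter, release genes called between labels numbered 0 in the home cage (0.15% of all genes) and 0 on average (0.261%). The same setting gave 10 between environments in KO-labelled libraries (13.9%, against 15.1% of all genes) and 0 for the difference in response (0% of all genes). Behind these zeros, 15, 13 and 14 release genes had an unadjusted p under 0.05 in limma. The difference in response also gave 0 with a pseudocount of 0.1 (0% of all genes), with 13 release genes at an unadjusted p under 0.05. It gave 1 with the filter of 5 FPKM (2.04%, against 0.78% of all genes). With only the groups compared, 2 were called between labels in the home cage, 8 between environments in WT-labelled and 5 in KO-labelled libraries. Quantile normalization gave 5 between environments in WT-labelled libraries (8.62%, against 5.82% of all genes). With each library left out in turn, counts ran from 0 to 7 between labels in the home cage, 0 to 2 on average, 0 to 5 between environments in WT-labelled, 1 to 25 in KO-labelled and 6 to 26 on average, and 0 to 6 for the difference in response. The low ends came without a home cage library in each case but the average between labels and the difference in response, which also fell to 0 without some exploration libraries. Over all tested genes the calls also varied with the library left out. Between labels after exploration the number was 0 under each alternative, where 0.941% of all genes were called with the filter of 5 FPKM. Without KO-labelled home cage library 2 the numbers were 0, 0, 4, 1, 6 and 0 in the order of the ranges above, with 11, 12 and 7 genes at an unadjusted p under 0.05 behind the zeros. Where leaving out a library left 1 in a group, that one was assumed to vary like the others. Of the single genes called, the adjusted p was no longer under 0.05 for 24 of 50 with no filter, 15 of 25 with only the groups compared, 9 of 50 with quantile normalization and 5 of 50 with size factors. No paired analysis was possible because the labels give no numbers that pair libraries across groups. Groups of 2 and 3 libraries and 2 decimals of FPKM limit the precision of low genes such as Stxbp2, Vamp8 and Stx2.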
